A study of Sus scrofa with 6 samples.

Results

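ACAT2, HMGCS1, FDPS, FDFT1, SQLE and MSMO1 encode enzymes of cholesterol synthesis, and their transcripts were followed in 3 tissues of pigs (Sus scrofa) of 2 breeds, Berkshire and Korean native. The members were the Ensembl pig gene IDs that carry these 6 symbols in the supplied table of gene names, and they were 6 of the 25322 gene IDs counted. All 6 had reads in every library and passed the filter on low counts. RNA of frozen tissue had been sequenced in 6 libraries, 1 for each breed and tissue, giving the groups Berkshire fat, Berkshire liver, Berkshire muscle, Korean native fat, Korean native liver and Korean native muscle. No treatment is named for any group. Neither age, sex nor feeding state is given in the sources used here. Whether 1 animal or more gave the 3 libraries of each breed is left unsaid by the labels, although 3 of each breed are named in the series title. The sample titles of the Korean native libraries carry the code JNP, which is not explained, and the breed label was followed. A p-value below therefore stands against the spread of the 6 libraries alone, and a difference between breeds cannot be told apart from a difference between animals.

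Cells build cholesterol from acetyl-CoA through the mevalonate pathway, which first makes short isoprenoid units, joins them into squalene, and then closes and trims squalene into the sterol ring. The liver is a main site of this synthesis, and it also takes cholesterol from the blood, secretes it in lipoproteins and turns it into bile acids. The genes of the pathway share a transcription factor family, the sterol regulatory element binding proteins, which are released from the endoplasmic reticulum when membrane sterol is low.

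The libraries held between 5897407 and 7912093 counts on genes. Levels are given as TMM-scaled CPM, counts scaled to a fixed library total and corrected for differences in RNA composition. Transcript length was not corrected for, so a level is compared between libraries and never between genes. The tissue labels matched the marker genes. All 7 hepatocyte markers measured passed the test as higher in liver than in fat and muscle, all 4 adipocyte markers as lower in liver and muscle than in fat, and all 6 skeletal muscle markers as higher in muscle than in fat and liver. In bulk tissue, fewer cells of a type and less RNA per cell cannot be told apart.

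Transcripts of all 6 enzymes were most abundant in the Korean native liver. Summed over the members, the level was 4497 CPM there, against 681 in Berkshire liver, 301 in Korean native fat, 282 in Korean native muscle, 175 in Berkshire fat and 162 in Berkshire muscle. Both livers stood above every fat and muscle library for HMGCS1, FDPS, SQLE and MSMO1, which are 4 of the 6 members. Of the 13810 genes tested, 24.3% had their liver levels above both other tissues in both breeds.

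ACAT2 (ENSSSCG00000004049) encodes the cytosolic thiolase that joins acetyl-CoA units at the entrance of the pathway. It stood at 129 CPM in Korean native liver and 38.4 in Berkshire liver, at 45.1 and 21.0 in Korean native and Berkshire fat, and at 5.54 and 7.87 in Korean native and Berkshire muscle. The fat and liver libraries overlapped, since Korean native fat lay above Berkshire liver, but the counting intervals of those libraries also overlapped. The lowest levels were those of muscle, with 24 counts in the Korean native and 43 in the Berkshire library.

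HMGCS1 (ENSSSCG00000016872), the cytosolic synthase that makes the direct precursor of mevalonate, reached 1556 CPM in Korean native liver. Berkshire liver followed with 91.8 CPM, then Korean native fat with 75.8, Korean native muscle with 55.4, Berkshire fat with 35.4 and Berkshire muscle with 33.1. The Korean native liver thus stood far from the other 5 libraries, and the intervals of Berkshire fat and Berkshire muscle overlapped.

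FDPS (ENSSSCG00000006512) encodes farnesyl diphosphate synthase, which chains isoprenoid units into the branch point between sterols and the other isoprenoids. Its level was 496 CPM in Korean native liver and 125 in Berkshire liver. In fat it was 63.9 CPM in the Korean native and 34.8 in the Berkshire library, and in muscle 31.6 and 24.2. The order ran liver, fat, muscle within each breed, while the counting intervals of Korean native muscle and Berkshire fat overlapped.

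FDFT1 (ENSSSCG00000026044) is squalene synthase, the enzyme that commits farnesyl diphosphate to sterols, and its pattern departed from that of the other members. The Korean native liver held 697 CPM, but the next levels were those of muscle, with 172 CPM in the Korean native and 82.9 in the Berkshire library. Berkshire liver had 69.4 CPM and the fat libraries 58.1 and 57.2. Berkshire liver was therefore below both muscle libraries, with a ratio to Berkshire muscle of 0.837 (95% counting interval 0.726 to 0.965), while the counting intervals of its level and that of Korean native fat overlapped.

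SQLE (ENSSSCG00000005970), squalene epoxidase, adds the oxygen on which the ring closure depends. It stood at 387 CPM in Korean native liver, 38.0 in Berkshire liver, 25.2 in Korean native fat and 7.54 in Berkshire fat. Muscle had 7.38 CPM in the Korean native and 5.49 in the Berkshire library. Those muscle levels and that of Berkshire fat were the lowest, and their neighbouring counting intervals overlapped.

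MSMO1 (ENSSSCG00000008857), a methylsterol monooxygenase that takes part in the removal of methyl groups from the sterol ring, had the widest distance between liver and the other tissues. Its level was 1232 CPM in Korean native and 318 in Berkshire liver. Fat held 32.6 and 19.7 CPM, and muscle 10.4 and 8.79, in the Korean native and Berkshire libraries. No level of one tissue overlapped that of another.

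**Figure D1:**
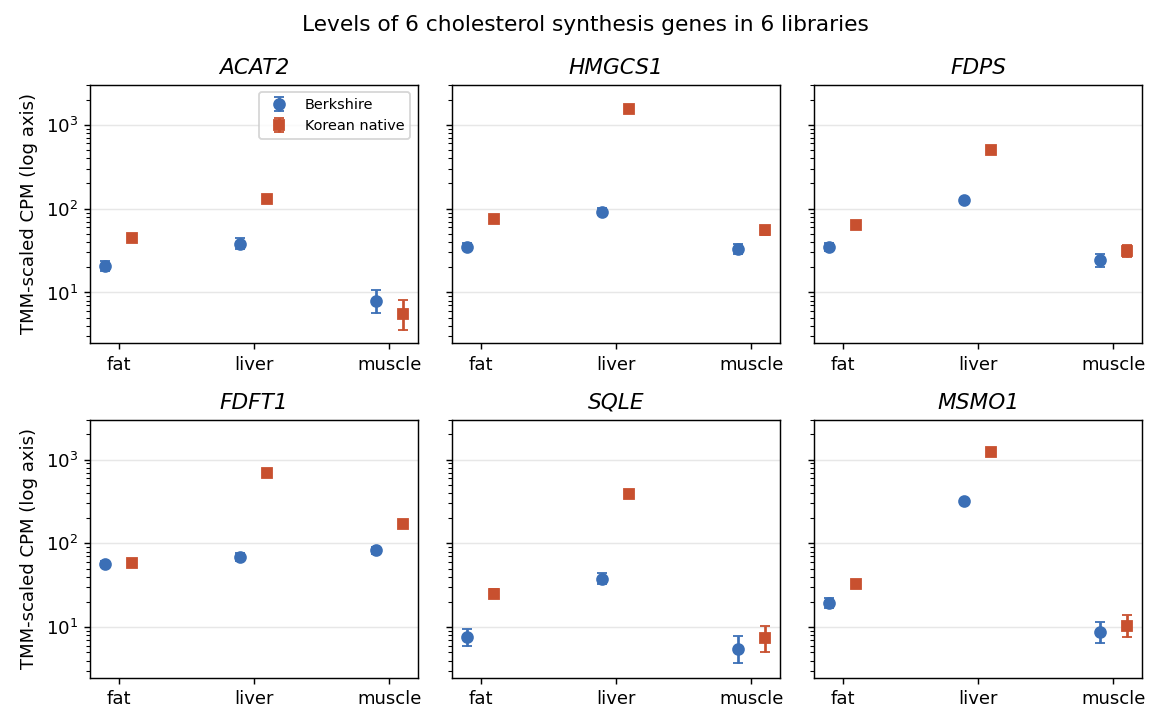
Levels of the 6 enzymes in each of the 6 libraries, with tissue on the x axis and TMM-scaled CPM on a logarithmic y axis. Circles are Berkshire and squares Korean native libraries, 1 of each per tissue, and bars are the 95% counting intervals; the Korean native liver is the highest point in every panel.

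The tissues were compared by 1 model over all 6 libraries with tissue and breed as terms. Higher in liver than in fat, by edgeR's quasi-likelihood test with a Benjamini-Hochberg adjusted p under 0.05, were 4 of the 6 members, where 15.2% of all genes tested were called higher in liver. The median difference of the members was 2.83 on the log2 scale, and that of all genes tested was 0.06. The members' median was 1.505 without the Korean native liver, 3.75 without the Berkshire liver and 1.85 with scaling to total counts. MSMO1 rose by 4.70 ± 0.52 (log2, SE; adjusted p = 9.3e-04, edgeR), from a mean of 26.2 ± 9.16 CPM in fat (SD, n = 2) to 775 ± 646 in liver (SD, n = 2). SQLE rose by 3.31 ± 0.64 (adjusted p = 0.0092, edgeR), HMGCS1 by 3.20 ± 0.85 (adjusted p = 0.029, edgeR) and FDPS by 2.47 ± 0.45 (adjusted p = 0.0069, edgeR). FDFT1, at 2.07 ± 0.78 (adjusted p = 0.089, edgeR), and ACAT2, at 1.26 ± 0.49 (adjusted p = 0.099, edgeR), did not pass. Without the Korean native fat library only MSMO1 was called. The differences were then 2.42 for HMGCS1 (adjusted p = 0.17, edgeR), 2.29 for FDPS (adjusted p = 0.055, edgeR) and 3.10 for SQLE (adjusted p = 0.055, edgeR), so those of FDPS and SQLE were nearly as large with fewer libraries. The call of HMGCS1 also ended without the Korean native liver, where its difference was 1.29 (adjusted p = 0.10, edgeR), and with scaling to total counts, at 2.23 (adjusted p = 0.066, edgeR). FDFT1 passed with no filter (adjusted p = 0.045, edgeR) and with DESeq2 (adjusted p = 0.024). Its difference was 3.30 without the Berkshire liver and 3.13 without the Berkshire fat. That of ACAT2 was 1.82 without the Berkshire liver, 1.10 without the Berkshire muscle and 1.20 without the Korean native muscle. Leaving out a library leaves its tissue with 1 library, so a call made or lost then holds no spread of that tissue.

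Liver stood above muscle for 5 of the 6 members, against 18.6% of all genes tested that were called higher in liver than in muscle. The median difference was 3.38 for the members and -0.01 for all genes tested. MSMO1 differed by 6.07 ± 0.57 (log2, SE; adjusted p = 3.2e-04, edgeR), SQLE by 4.34 ± 0.71 (adjusted p = 0.0036, edgeR) and HMGCS1 by 3.42 ± 0.87 (adjusted p = 0.021, edgeR). ACAT2 differed by 3.35 ± 0.56 (adjusted p = 0.0040, edgeR) and FDPS by 3.21 ± 0.47 (adjusted p = 0.0022, edgeR). FDFT1 was the exception, at 1.17 ± 0.73 (adjusted p = 0.26, edgeR), and its direction rested on 1 library: without the Korean native liver its difference was -0.54. Without the Berkshire liver it was 2.25. The call of HMGCS1 ended without the Korean native muscle, at 2.39 (adjusted p = 0.13, edgeR). Without the Korean native liver the difference was 1.56 for HMGCS1 and 3.13 for SQLE, both well below their values over all libraries. The members' median was then 2.58.

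Muscle and fat differed less. Only ACAT2 was called, lower in muscle by -2.09 ± 0.54 (log2, SE; adjusted p = 0.041, edgeR), which is 1 of the 6 members where 6.43% of all genes tested were called lower in muscle. That call ended without Berkshire fat (-2.26, adjusted p = 0.084, edgeR), without Korean native fat (-1.94, adjusted p = 0.145, edgeR) and without Korean native muscle (-1.25, adjusted p = 0.135, edgeR). It also ended in the model without the breed term, where the difference was -2.29 (adjusted p = 0.055, edgeR). The remaining differences were -1.38 ± 0.48 for MSMO1, -1.03 ± 0.65 for SQLE, -0.74 ± 0.43 for FDPS, -0.22 ± 0.75 for HMGCS1 and 0.90 ± 0.70 for FDFT1. FDFT1 was thus the only member with a value above 0 here, and none of these 5 passed the test in this model. MSMO1 passed with DESeq2, at -1.40 (adjusted p = 0.042). With scaling to total counts MSMO1 (-2.29, adjusted p = 0.016, edgeR) and FDPS (-1.65, adjusted p = 0.030, edgeR) passed. The median of all genes was then -0.98, and FDFT1 stood at -0.00459. The sign of HMGCS1 was not stable, being 0.61 without Berkshire fat and 0.49 without Korean native muscle.

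**Figure D2:**
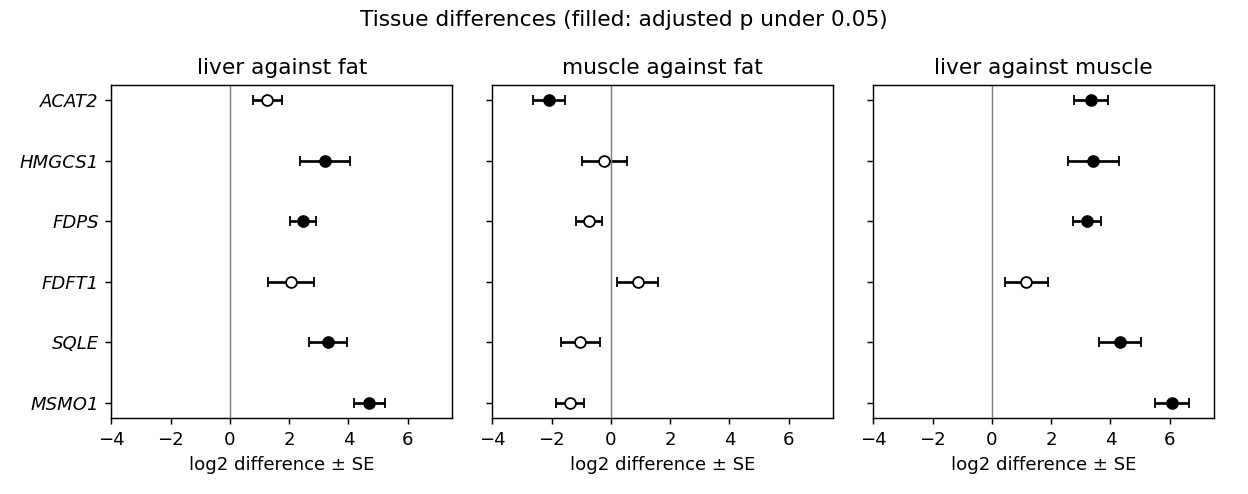
Differences between tissues for the 6 enzymes on the log2 scale, with their SE, from the model over all 6 libraries; filled points passed the edgeR test at an adjusted p under 0.05. Liver against muscle has 5 filled points, liver against fat 4 and muscle against fat 1.

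The size of the liver excess differed between the breeds as measured, with 1 library on each side. In the Korean native libraries the liver level was 20.5 times that of fat for HMGCS1, 12.0 times for FDFT1 and 15.3 times for SQLE, and in the Berkshire libraries 2.60, 1.21 and 5.04 times. MSMO1 kept a high ratio in both, at 37.7 in Korean native and 16.2 in Berkshire pigs. FDPS had 7.77 and 3.60, and ACAT2 2.86 and 1.83. The ratio was larger in the Korean native libraries for each of the 6 enzymes. The size of these ratios rests on the scaling. TMM factors were 1.62 and 1.52 for Berkshire and Korean native fat, and 0.790 and 0.764 for the livers in the same order. With scaling to total counts, the liver against fat difference of the model was 0.25 for ACAT2 and 1.11 for FDFT1 (log2). Against muscle, the liver level of FDFT1 was 4.05 times higher in Korean native pigs and 0.837 times that of muscle in Berkshire pigs, so the direction differed. These ratios have no replicate, and the difference between the breeds in them was not tested. The model over all libraries takes that difference as its spread.

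Between the breeds, the 6 members differed most in liver. All 6 members were at least 2-fold higher in Korean native than in Berkshire liver, where 6.18% of 10331 genes were, counting those that reached 5 CPM in either library. With 1 library per breed and tissue, these ratios have no replicate check and no p-value, and the intervals beside them cover counting error only. The members were chosen with earlier results of these data known, so their counts and ranks in each tissue are not independent of that choice. HMGCS1 was 16.9-fold higher (95% interval 15.4 to 18.7), from 459 counts in the Berkshire to 9391 in the Korean native library. SQLE was 10.2-fold higher (8.78 to 11.9), from 190 to 2335 counts, and FDFT1 10.03-fold higher (8.99 to 11.2), from 347 to 4204 counts. These 3 enzymes stand at separate steps of the route, at the approach to mevalonate, the making of squalene and its oxidation. FDPS was 3.96-fold higher (3.64 to 4.33), MSMO1 3.87-fold (3.66 to 4.09) and ACAT2 3.36-fold (2.86 to 3.95). The median log2 ratio of the members was 2.65, and that of all genes passing the minimum was 0.00. A larger ratio than that of HMGCS1 was seen for 24 of the 10331 genes, than that of SQLE for 37, and than that of FDFT1 for 40. The corresponding numbers were 146 for FDPS, 149 for MSMO1 and 195 for ACAT2.

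**Figure D3:**
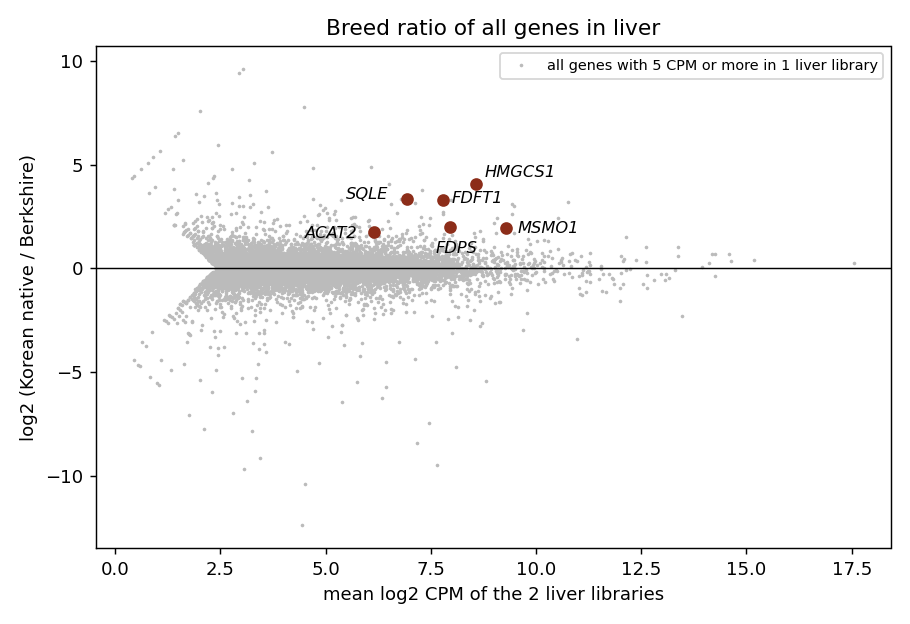
Breed ratio of all genes that reached 5 CPM in either liver library, as log2 of Korean native over Berkshire, against the mean log2 CPM of those libraries. Each grey point is 1 gene and the red points are the 6 enzymes, which all lie above 0.

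In fat, 3 of the 6 members were at least 2-fold higher in the Korean native library, against 4.68% of 10139 genes. SQLE was 3.35-fold higher (95% interval 2.58 to 4.38), ACAT2 2.15-fold (1.82 to 2.54) and HMGCS1 2.14-fold (1.89 to 2.44). FDPS had a ratio of 1.84 (1.61 to 2.10) and MSMO1 of 1.66 (1.39 to 1.99). FDFT1 had a ratio of 1.02 (0.904 to 1.14), so the levels of its fat libraries did not differ beyond counting error. SQLE was the member farthest out in fat, where 124 genes had a larger ratio, while FDFT1 had 5034 genes above it.

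In muscle, FDFT1 was the member with the largest ratio, 2.07 (95% interval 1.84 to 2.33), and it was the only one of the 6 that was at least 2-fold higher in the Korean native library, where 10.7% of 10142 genes were. A count of 1 in 6 is not far from that background. HMGCS1 had a ratio of 1.67 (1.37 to 2.04) and FDPS of 1.31 (1.02 to 1.67). For SQLE, with 1.34 (0.791 to 2.29), MSMO1, with 1.18 (0.769 to 1.81), and ACAT2, with 0.703 (0.408 to 1.19), the interval included equality. FDFT1 and ACAT2 thus differed from each other in where the breeds lay apart: FDFT1 in liver and muscle, ACAT2 in liver and fat. Scaling to total gene counts put FDFT1 in muscle at 0.74 on the log2 scale, under the 2-fold limit.

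**Figure D4:**
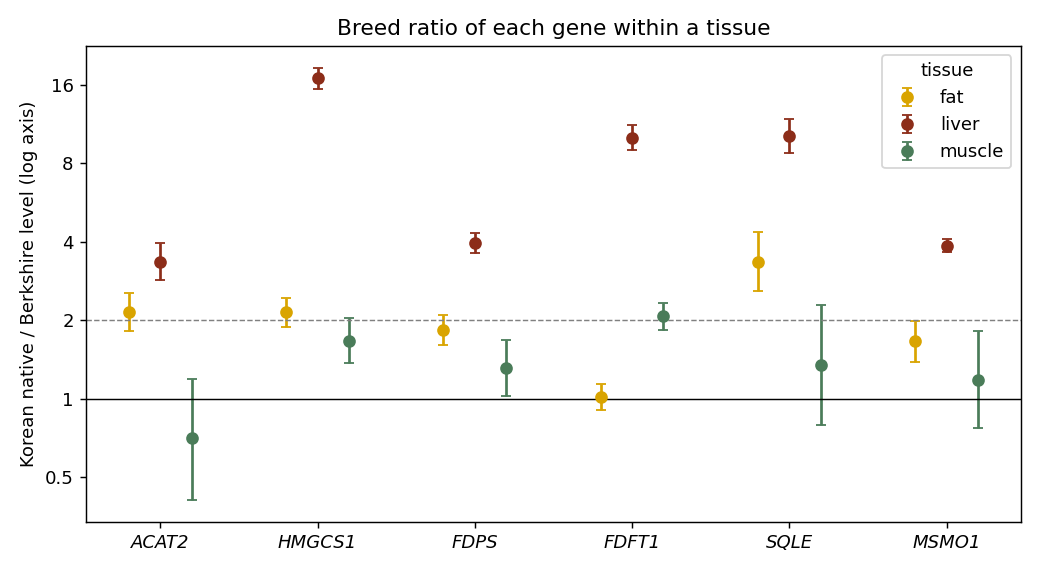
Ratio of the Korean native to the Berkshire level of the 6 enzymes in fat, liver and muscle, on a logarithmic axis, with 95% counting intervals. Each point compares 1 library with 1 library; all 6 liver points lie above 2, with HMGCS1, SQLE and FDFT1 above the others.

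Over the 3 tissues together, the Korean native level lay above the Berkshire level in each tissue for 5 of the 6 members, all but ACAT2, where this held for 16.0% of the 8434 genes with enough counts in every tissue. FDFT1 is among the 5 by its fat ratio of 1.02, and SQLE and MSMO1 by muscle ratios of 1.34 and 1.18, each within counting error. Only HMGCS1 and FDPS were higher past counting error in every tissue. The breed term of the model called none of the 6 members by edgeR, where 0.109% of all genes tested were called. The breed differences (log2, SE) were 1.96 ± 0.54 for SQLE, 1.90 ± 0.68 for HMGCS1, 1.43 ± 0.62 for FDFT1, 1.10 ± 0.36 for FDPS, 1.02 ± 0.39 for MSMO1 and 0.91 ± 0.43 for ACAT2. The lowest adjusted p by edgeR was 0.44, that of SQLE. At an unadjusted p under 0.05, 4 members passed with edgeR, 5 with DESeq2 and 6 with limma-voom. Of all 13810 genes tested, 1103, 874 and 1271 did so in the same order. None of the members was called by either of the other tools after adjustment. The test treats the 3 tissues as replicates of a breed, and the members' breed ratios were unequal between tissues.

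The other enzymes of the route were examined as a list of 13, of which 9 could be matched to a symbol and were tested; PMVK, MVD, LBR and EBP were not matched. In liver against fat 8 of the 9 were called higher and none lower, with a median of 3.11 on the log2 scale, near the members' 2.83. The enzyme not called was LSS, which closes the sterol ring. In liver against muscle 9 of 9 were called higher, with a median of 4.70. In muscle against fat 5 of 9 were called lower, but only 3 without the breed term, 1 without Berkshire fat, 2 without Korean native fat and 1 without Korean native muscle. Between the breeds edgeR called none (2 at an unadjusted p under 0.05), and DESeq2 and limma-voom called none of this list or of those that follow.

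Members and other enzymes were both chosen with earlier results of these data known. In liver, 4 of the 9 other enzymes were at least 2-fold higher in the Korean native library, against 6 of 6 members, and their median log2 ratio was 0.89. IDI1, the isomerase of the isoprenoid units, came first with a ratio of 8.94 and levels of 418 and 46.8 CPM. MVK, mevalonate kinase, had 3.16, CYP51A1, which removes a methyl group from lanosterol, had 2.87, and NSDHL, a later demethylation enzyme, had 2.53. The others lay at 1.85 for TM7SF2, 1.71 for SC5D, 1.66 for LSS, 1.59 for HSD17B7 and 0.978 for DHCR7. DHCR7, which removes a double bond from the sterol ring, had 137 CPM in Korean native and 140 in Berkshire liver. None of the 8 measured enough in fat and none of the 6 in muscle was 2-fold higher.

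When the members and these 9 enzymes were set out along the route, in a division chosen after the values were seen, the ratios were unequal between the stages. From acetyl-CoA to squalene, 6 of 6 genes were at least 2-fold higher in Korean native liver, with ratios of 3.16 to 16.9 and a median of 6.45. From squalene to cholesterol, 4 of 9 were, with ratios of 0.978 to 10.2 and a median of 1.85. SQLE, the enzyme at the opening of the later stage, held its highest ratio. MSMO1, with 3.87, had the next highest of that stage. In the earlier stage only MVK (3.16) and IDI1 (8.94) are not members, and in the later stage only SQLE and MSMO1 are members. The members were chosen with earlier results of these data known, so the contrast of the stages is not independent of that choice. The difference between the stages was not tested.

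**Figure D5:**
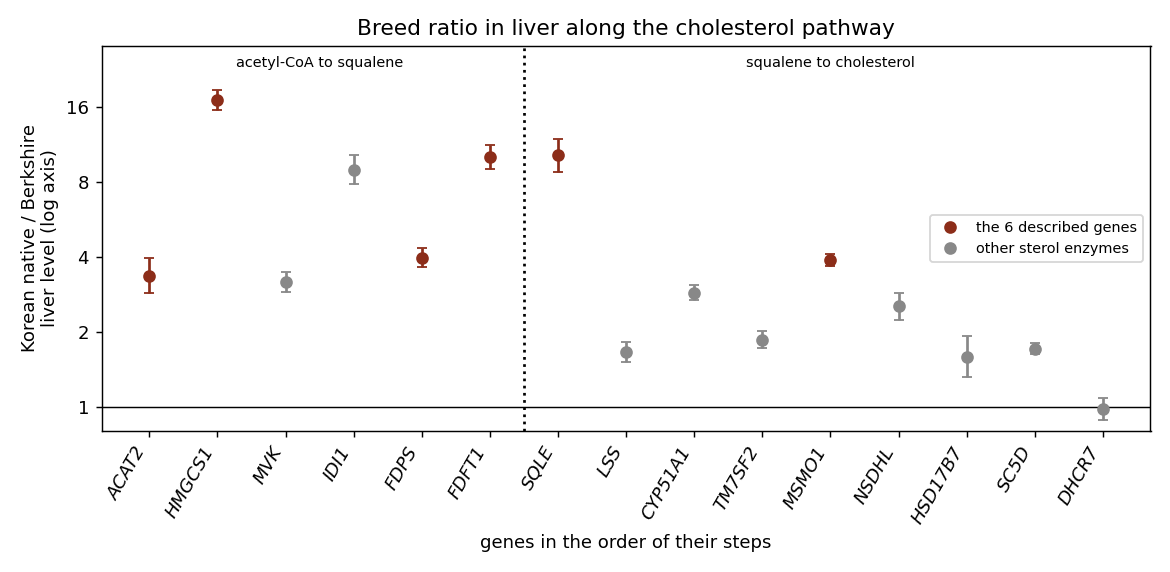
Ratio of the Korean native to the Berkshire liver level for 15 enzymes in the order of the route from acetyl-CoA to cholesterol, on a logarithmic axis with 95% counting intervals. Red points are the 6 members and grey points the other enzymes; ratios reach 16.9 before squalene and DHCR7, the last point, has 0.978.

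Sensing and uptake of sterol were examined with a list of 13 genes, of which 8 were tested; SREBF1, INSIG2, MBTPS2, STARD4 and TMEM97 were not matched. In liver against fat 3 were called higher and 1 lower, in liver against muscle 4 higher, and in muscle against fat 3 lower, and none was called between the breeds (1 at an unadjusted p under 0.05). The 4 calls in liver against fat came to 2 without Berkshire fat, 1 without Korean native fat and 1 without Korean native liver, and the 3 in muscle against fat to 1 when Berkshire fat, Korean native fat or Korean native muscle was left out. In liver, 1 of 7 was at least 2-fold higher in the Korean native library: NPC1, which moves cholesterol out of lysosomes, with 61.8 against 23.6 CPM (ratio 2.62).

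SREBF2, the transcription factor of the sterol synthesis genes, had 120 CPM in Korean native and 60.4 in Berkshire liver, a ratio of 1.99. It was higher in liver than in fat by 1.49 ± 0.29 (log2, SE; adjusted p = 0.0094, edgeR). INSIG1, which holds the factor back in the endoplasmic reticulum, had 300 and 167 CPM in liver, a ratio of 1.80, but 64.8 and 84.9 CPM in fat. SCAP, which escorts the factor out of that compartment, had 39.4 and 31.6 CPM in liver, a ratio of 1.25. The ratios of these genes in liver were below that of every member, the lowest of which was 3.36.

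Genes for sterol export, storage and breakdown formed a list of 17, of which 14 were tested. In liver against fat 8 were called higher and 1 lower, in liver against muscle 10 higher and 1 lower, in muscle against fat 3 lower, and between the breeds none (1 at an unadjusted p under 0.05). The 3 calls in muscle against fat came to 1 without Berkshire muscle, without Korean native fat or without Korean native muscle. In liver, 2 of 13 were at least 2-fold higher in the Korean native library: SOAT2, which esterifies cholesterol for storage, with a ratio of 4.30, and ABCA1, which exports it, with 3.00. CYP7A1, the rate-limiting enzyme of bile acid synthesis, had 452 and 340 CPM in Korean native and Berkshire liver, a ratio of 1.33. NR1H3, a sterol-sensing nuclear receptor, had 98.6 and 90.6 CPM, and LIPA, the lysosomal lipase that frees cholesterol from its esters, had 268 and 378. The median log2 ratio of this list in liver was 0.12, against 2.65 for the members.

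Isoprenoid branches leave the route at the product of FDPS, and of 11 listed genes 6 were tested. In liver against fat 1 was called higher, NUS1, a subunit of the enzyme that makes dolichol, at 1.28 ± 0.33 (log2, SE; adjusted p = 0.027, edgeR). In muscle against fat 2 were called higher, among them FNTB, a subunit of protein farnesyltransferase, at 1.86 ± 0.42 (log2, SE, adjusted p = 0.028, edgeR). Of all 13810 genes tested, 2262 were called in muscle against fat, 60.7% of them higher in muscle. The call of NUS1 ended when any of the 4 fat and liver libraries was left out, and the 2 calls in muscle against fat came to 0 without Berkshire fat and to 1 without Korean native fat or Korean native muscle. In liver the breed ratio was 1.12 for NUS1, 0.671 for FNTB, 1.22 for PGGT1B, 0.985 for COQ2 and 0.878 for PDSS1. None of the 6 was 2-fold apart there, and their median log2 ratio was -0.10.

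Ketone body metabolism in mitochondria opens with the same thiolase reaction as ACAT2, and 3 of its genes were tested. ACAT1, the mitochondrial counterpart of ACAT2, had 651 CPM in Korean native and 360 in Berkshire liver, a ratio of 1.81, and was higher in liver than in fat by 1.75 ± 0.36 (log2, SE; adjusted p = 0.012, edgeR). BDH1, which makes the final ketone body, had 203 and 158 CPM in liver. OXCT1, which uses ketone bodies, was lower in liver than in fat, at -5.51 ± 0.39 (log2, SE; adjusted p = 1.4e-04, edgeR). None of the 3 was 2-fold apart between the liver libraries.

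Markers of other cell types also differed between the liver libraries. The summed level of 2 of 3 red cell markers (HBB and ALAS2; the other was not matched) was 2129 CPM in Korean native and 247 in Berkshire liver, with ratios of 8.71 for HBB and 6.95 for ALAS2, and it ranged from 75.7 to 185 CPM in fat and muscle. The summed hepatocyte markers were 2.44e+05 and 2.08e+05 CPM, and none of the 7 was 2-fold apart. Of 5 macrophage markers MARCO had a ratio of 8.55, while the summed level was 449 CPM in Korean native and 554 in Berkshire liver. In fat, where 3 members were 2-fold higher, the summed macrophage markers were 244 CPM in Korean native and 119 in Berkshire, and 2 of the 4 macrophage markers measured enough there were 2-fold higher. The summed adipocyte markers were 3384 and 4416 CPM in fat, where PLIN4 had a ratio of 1.30, PLIN1 of 0.567, LIPE of 0.484 and CIDEC of 0.477. In muscle, where FDFT1 was 2-fold higher, the skeletal muscle markers summed to 1.50e+05 CPM in Korean native and 9.67e+04 in Berkshire, with 3 of 6 at least 2-fold higher and all 6 above equality. The macrophage markers were 32.3 and 83.1 CPM there, with 4 of 4 at least 2-fold lower, the fibroblast markers 4022 and 17149, and the adipocyte markers 315 and 523, with 3 of 4 at least 2-fold lower. The endothelial and proliferating cell markers summed to 333 and 29.2 CPM in Korean native liver and to 345 and 25.2 CPM in Berkshire liver. The part of these differences in the members' ratios was not tested.

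FDPS came nearest to the members' common pattern. With each gene centred on its own mean log2 level over the 6 libraries, its root mean square distance from the members' mean profile was 0.26, and those of SQLE and HMGCS1 were 0.42 and 0.45. ACAT2 lay at 0.78, MSMO1 at 1.11 and FDFT1 at 1.14. On the log2 scale FDFT1 departed from the mean profile by 1.79 in Korean native muscle, -1.40 in Berkshire liver and 1.13 in Berkshire muscle, and by -0.82 in Korean native liver and -0.80 in Korean native fat. MSMO1 departed by 1.88 in Berkshire liver and 1.10 in Korean native liver, and by -1.13 and -0.97 in Korean native and Berkshire muscle. The mean profile includes each member itself, so these distances describe the spread within the set.

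Among 9019 genes with a symbol outside the lists, 553 lay no farther from the mean profile than FDFT1. The nearest was DNPH1, a nucleotide hydrolase, at 0.27 (Pearson r = 0.987 over 6 libraries), though its levels ran only from 0.183 to 15.2 CPM. MMAB, which activates vitamin B12, followed at 0.37 (r = 0.982), with 81.9 CPM in Korean native and 12.6 in Berkshire liver and 3.48 to 8.68 CPM elsewhere. AHR, the aryl hydrocarbon receptor, at 0.44 (r = 0.973), had 304 and 73.2 CPM in liver and 15.0 to 41.7 CPM elsewhere. GCLC, of glutathione synthesis, at 0.47 (r = 0.962), had 370 and 132 CPM in liver and 16.3 to 27.1 CPM elsewhere. EPS8L1 (0.37), NOCT (0.47), NAV2 (0.48) and VIL1 (0.53) completed the 8 nearest. Each was highest in Korean native liver, as was the profile by which they were chosen. In fat and muscle EPS8L1 had only 0.461 to 1.28 CPM and VIL1 only 0 to 0.394 CPM. Of the listed sterol enzymes, which were left out of this ranking, NSDHL lay at 0.52 and IDI1 at 0.59. These values describe likeness over 6 libraries that share 2 breeds and 3 tissues.

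ACAT2 and TCP1, a chaperonin subunit gene, are neighbours in the RefSeq annotation of Sscrofa11.1, and the strand setting of the counting was not stated. Reads from any overlap of these genes could therefore not be assigned with certainty, and whether they overlap was not examined. TCP1 had 212 CPM in Korean native and 158 in Berkshire liver, a ratio of 1.35 beside the 3.36 of ACAT2. In fat it had 121 and 110 CPM, and in muscle 158 and 129. Whether such reads add to the level of either gene was not tested. In the same annotation MMAB, named above, is a neighbour of MVK.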

How the data were processed

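The submitters' processing notes name TopHat, HTSeq 0.5.3p3 and the build Sscrofa10.2. The authors deposited raw read counts for each Ensembl gene ID. Strand setting, counting mode and annotation were not given in the sources used here. The 5 closing entries without a gene were left out; reads outside genes were 45.9% to 52.5% and reads without a unique alignment 14.1% to 20.8% of a library. A count of 0 allows a level of up to 0.294 to 0.692 CPM (3 counts), and intervals (95%, exact) and floors cover counting error only.

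Symbols came from the supplied table, which matched 11804 of the 25322 IDs (46.6%). edgeR 4.0.16 (R 4.3.3) was run with TMM factors, filterByExpr (13810 genes) and the quasi-likelihood test, two-sided, with tissue and breed as terms, 2 residual degrees of freedom, and Benjamini-Hochberg adjustment over all genes. Each SE is the size of the log2 difference over the square root of F. Ratios between breeds within a tissue were taken for genes with at least 5 CPM in 1 of 2 libraries; calls of 2-fold used a prior count of 2, and printed ratios none. DESeq2 1.42.0, limma 3.58.1 (voom), total-count scaling, other filters and limits, no breed or tissue term, and leaving out each library were alternatives. Only the edgeR test of liver against fat was tried on simulated counts, with a fixed spread and no breed effect. Named were all members, up to 5 genes of highest mean level per list and some key genes, the 9 matched sterol enzymes and list genes past the 2-fold limit in liver (chosen after their values were seen), and the 8 genes nearest in profile. Neighbouring genes came from RefSeq (Sscrofa11.1), whose coordinates were not used since the builds differ. Some genes of the lists are not reported here. The members and lists were chosen with earlier results of these data known.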

Additional observations from a re-analysis of the deposited data

Results flagged for a closer look

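The ratio of the Korean native to the Berkshire level lay on opposite sides of 1 in a pair of tissues, past the counting interval in each, for 9 genes of the accompanying pathway lists, for 11 marker genes and for no member. Each ratio rests on 1 library per breed, and the difference between the tissues was not tested. The share of all genes with such a pair is not given here, so these counts have no background to be read against. For each gene 1 pair of tissues is shown. Among enzymes of the later sterol route, LSS had a ratio of 0.567 in muscle and 1.75 in fat, and SC5D had 0.607 in muscle and 1.71 in liver. Among genes of sterol sensing and uptake, INSIG1 had 0.763 in fat and 1.80 in liver, MBTPS1, a protease that activates the sterol regulatory factors, had 0.842 in fat and 1.16 in liver, and NPC2, a lysosomal cholesterol carrier, had 0.708 in muscle and 1.13 in fat. NR1H2, a sterol-sensing nuclear receptor, had 0.754 in fat and 1.46 in muscle, and SCARB1, the receptor for high-density lipoprotein, had 0.491 in fat and 1.36 in liver. SOAT1, which esterifies cholesterol, had 0.657 in liver and 1.73 in fat. Of the ketone body genes, BDH1 had 0.495 in fat and 1.28 in liver. Of the macrophage markers, CD68 had 0.657 in liver and 2.71 in fat, CD14 had 0.726 and 2.39, CSF1R had 0.575 and 1.95, and C1QA had 0.629 and 1.89. Their ratios in muscle were lower still, at 0.375, 0.480, 0.399 and 0.379 in the same order. Of the fibroblast markers, COL3A1 had 0.822 in liver and 1.41 in fat, PDGFRA had 0.573 in liver and 1.94 in fat, DCN had 0.5003 in muscle and 1.88 in fat, and LUM had 0.424 in muscle and 1.37 in fat. The muscle ratio of COL3A1 was 0.190. KDR, an endothelial marker, had 0.809 in fat and 1.77 in muscle, CIDEC, an adipocyte marker, had 0.477 in fat and 1.68 in liver, and HBB, a red cell marker, had 0.748 in muscle and 8.71 in liver. ACAT2, the member whose muscle ratio lay below 1, had an interval in muscle that included equality.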

How the results depend on the processing

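No paired analysis was possible because each group has 1 library and the shared number 1 marks no pair. Of the members' differences between tissues or breeds, 237 values under the alternatives kept their direction and side of the threshold, 13 came to pass, 10 no longer passed and 4 turned in sign. The sign turned for FDFT1 in muscle against fat with total counts (-0.00459), for HMGCS1 there without Berkshire fat (0.61) or Korean native muscle (0.49), and for FDFT1 in liver against muscle without Korean native liver (-0.54). Over all libraries left out in turn, these values ranged from -1.48 to 0.61 for HMGCS1 and from -0.54 to 2.25 for FDFT1. Each such fit leaves 1 library in the tissue concerned, so its calls hold no spread of that tissue. Leaving out 1 library in turn gave 1 to 6 members called in liver against fat, 0 to 2 in muscle against fat and 4 to 6 in liver against muscle. In muscle against fat, 3 members were called with total counts, 2 with DESeq2 and 0 without the breed term. A 4-fold limit in place of 2-fold left 0 members in fat, 3 in liver and 0 in muscle. Of all genes, 77 of 10139 in fat, 142 of 10331 in liver and 128 of 10142 in muscle were at least 4-fold higher. With total counts 0 members passed 2-fold in muscle, where 485 of 9710 genes did. Total counts moved the median of all genes to -0.94 in liver against fat, -0.98 in muscle against fat and -0.28 in the muscle breed ratio, and the share of calls that were higher from 53.0% to 16.6% and from 60.7% to 12.7% in the tissue comparisons with fat. Genes called numbered 3959 in liver against fat (6955 with total counts, 2452 without Korean native fat), 2262 in muscle against fat (6020 with total counts, and, leaving out a library, 1475 for Berkshire fat, 866 for Korean native fat and 1010 for Korean native muscle) and 15 between the breeds (94 with DESeq2, 87 without a filter, 0 without the tissue term). The cause was not tested.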
